A study of Mus musculus with 16 samples.

Results

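DLK (dual leucine zipper kinase, encoded by Map3k12) and 9 further genes of axon injury signalling were followed in chromatin of mouse retinal ganglion cells during experimental autoimmune encephalomyelitis (EAE), an autoimmune inflammation of the central nervous system that can involve the optic nerve. The 10 genes were taken by name from a deposited table of 37255 gene intervals, and each name matched 1 interval. They were the kinase genes Map3k12, Map3k13, Map2k4, Map2k7, Mapk8 and Mapk10, the transcription factor genes Jun and Atf3, and the axon degeneration pair Sarm1 and Nmnat2.

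DLK and its close relative LZK (Map3k13) are mitogen-activated protein kinase kinase kinases at the head of a relay that reports damage from the axon to the cell body. They activate the kinases MKK4 (Map2k4) and MKK7 (Map2k7), which activate the c-Jun N-terminal kinases JNK1 (Mapk8) and JNK3 (Mapk10), and these phosphorylate c-Jun and raise ATF3. In ganglion cells this relay is known for its part in cell death after optic nerve injury. In the axon itself, NMNAT2 is a short-lived enzyme that makes NAD, and its loss releases SARM1, an enzyme that degrades NAD and drives the axon's breakdown.

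ATAC-seq, which reads accessible DNA by where a transposase cuts it, was run on retinal ganglion cells isolated by flow sorting from female mouse eyes. Naive libraries came from controls without EAE (n = 5), and the others from mice with EAE, induced at an age of 7 to 8 weeks, taken at the presymptomatic stage (n = 4), at onset (n = 3) and at the peak of disease (n = 4). All 16 libraries share tissue, sex and cell type. The sources used here do not give the strain, the days after induction or any pooling of animals. Nothing in the labels says that libraries of a stage came from separate animals, so the p-values measure the spread between these libraries, which may in part be technical. The design compares each stage with naive and the stages with each other.

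Each value is a count of reads over a gene. The lengths implied by the deposited RPKM values equal, for genes as long as these 10, the span less 2000 bp, read here as the gene body without its outermost 1000 bp at each end, so that the promoter at the deposited gene start would not be in the count. The sources used here do not state the placement of that window. Nuclear reads in intervals ranged from 1.58 to 15.1 M (megareads) per library, with the lowest stage mean at peak (1.58 to 3.70 M). Mitochondrial genes took 8.36% to 64.7% of interval reads, the lowest share being that of onset replicate 3, which stood apart from the other onset libraries (37.2% and 51.3%). Ganglion cell markers had a median read density in naive libraries of 1.12 reads per kb and M of nuclear reads, against 0.669 over all genes. Markers of rods (1.15) and of amacrine and horizontal cells (1.53) were as dense or denser, those of Müller glia and astrocytes (1.07) close by, those of cones (0.773) and bipolar cells (0.776) less dense, and those of microglia (0.429) and lymphocytes (0.415) lay below the median gene. None of these markers was at 0 in all naive libraries, and ganglion cell markers were not the densest of the lists.

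In naive cells, Jun was the densest of the 10 genes and Sarm1 the least dense. Jun carried 24.3 ± 6.27 reads per interval kb per M nuclear reads (SD, n = 5), above 99.7% of 29754 nuclear genes. Its interval is only 1.19 kb, in the middle of a short gene without introns, and among 1546 genes with intervals of like length (within 0.5 on the log2 scale) it stood above 96.6%. That set, with a median density of 1.41, was matched on interval length and not on span. It may thus hold genes under 1000 bp, whose windows on the same reading would take in their starts. Nmnat2, at 1.15 ± 0.465 (SD, n = 5) over 162 kb, stood above 86.2% of genes of like length. Sarm1, at 0.306 ± 0.115 (SD, n = 5) over 23.5 kb, stood above 8.85% of them. The density of Nmnat2 was higher than that of Sarm1 in each of the 16 libraries, by 0.42 to 2.95 on a log2 scale per kb.

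The kinase genes lay closer together in density. Map2k7 (0.795), Map3k13 (0.765), Mapk10 (0.679), Map3k12 (0.633), Map2k4 (0.501) and Mapk8 (0.501) had mean naive densities that differed by less than 1 in log2 terms, and their libraries overlapped. Map2k4, Mapk8 and Mapk10 stood above 23.1%, 26.8% and 25.5% of genes with intervals of like length, and Map2k7 above 67.8%. Atf3 had 0.778 ± 0.346 (SD, n = 5), close to Map2k7 and far below Jun.

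**Figure D1:**
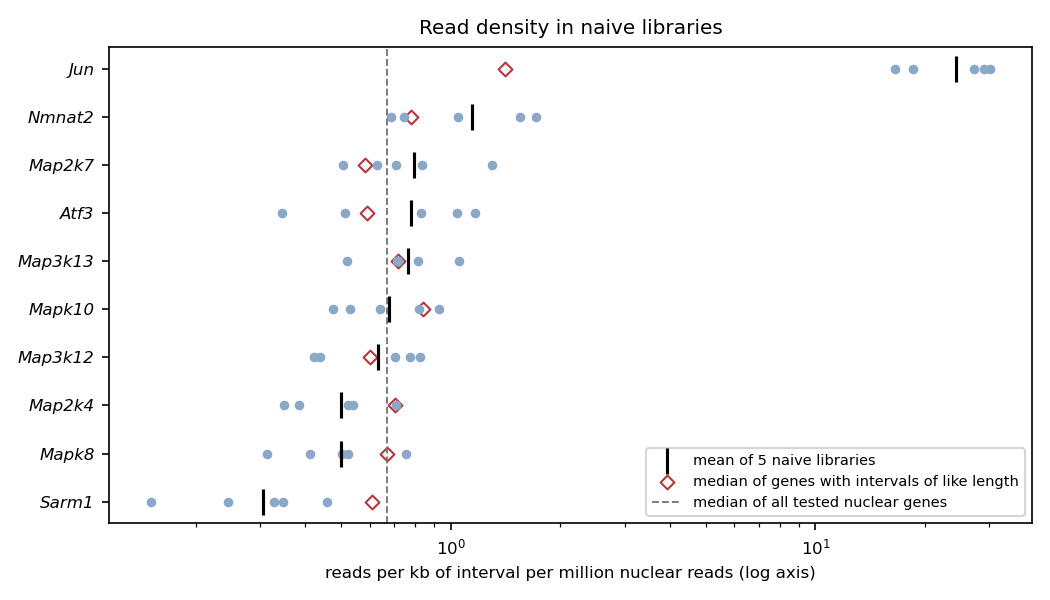
Read density of the 10 genes in naive libraries on a log axis, in reads per interval kb per M nuclear reads; points are the 5 libraries, bars their mean, diamonds the median of genes with intervals of like length and the dashed line the median of all nuclear genes tested (0.669). Jun stands at 24.3 and Sarm1 at 0.306.

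Some promoters do lie within the counted bodies. RefSeq (GRCm38.p6) listed 15 start sites for the 10 genes, and 6 of them, 1 each in Map3k12, Map3k13, Map2k4, Map2k7, Mapk8 and Mapk10, lay inside the counted interval as read above. The deposited coordinates name no build. Their gene starts and ends equal those of GRCm38.p6 for Map3k12, Map2k4, Map2k7, Jun and Atf3, and differ by up to 2057 bp for the others. The inner promoter of Map3k12 is shown because it is part of what was counted for that gene, 5304 bp from the nearer edge of the interval. The others are shown because the pathway ends at c-Jun and ATF3, which bind as dimers to short sites of the AP-1 and cyclic AMP response element (CRE) type. Each sequence is the 250 bases before a start site, 5′ to 3′ on the gene's strand, and capitals mark the sites found.
Map3k12, inner start, chr15:102510701-102510950, minus strand: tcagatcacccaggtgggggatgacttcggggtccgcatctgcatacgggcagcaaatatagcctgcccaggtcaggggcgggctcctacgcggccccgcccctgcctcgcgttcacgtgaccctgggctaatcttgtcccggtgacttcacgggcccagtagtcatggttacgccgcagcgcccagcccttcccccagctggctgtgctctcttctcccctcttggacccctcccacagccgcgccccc
Mapk10, chr5:103211335-103211584, minus strand: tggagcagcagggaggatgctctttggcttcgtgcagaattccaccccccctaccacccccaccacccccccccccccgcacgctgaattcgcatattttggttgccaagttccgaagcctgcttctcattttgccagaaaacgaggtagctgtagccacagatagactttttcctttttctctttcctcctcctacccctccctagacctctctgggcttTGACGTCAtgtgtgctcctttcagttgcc
Jun, chr4:95052223-95052472, minus strand: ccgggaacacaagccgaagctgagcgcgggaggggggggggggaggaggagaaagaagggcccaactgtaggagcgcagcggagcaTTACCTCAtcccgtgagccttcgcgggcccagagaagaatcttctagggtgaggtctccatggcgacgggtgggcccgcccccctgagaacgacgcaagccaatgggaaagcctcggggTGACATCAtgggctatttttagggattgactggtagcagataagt
Atf3, chr1:191183334-191183583, minus strand: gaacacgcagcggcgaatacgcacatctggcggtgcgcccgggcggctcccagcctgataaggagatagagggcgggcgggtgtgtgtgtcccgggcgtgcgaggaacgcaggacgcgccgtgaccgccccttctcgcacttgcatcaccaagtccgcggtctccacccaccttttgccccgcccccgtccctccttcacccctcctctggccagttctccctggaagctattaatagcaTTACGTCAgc

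Of the 15 promoters, 3 held a site of the 5 kinds searched on both strands, and none of the sites overlapped another. The Jun promoter held TGACATCA at 45 to 38 bases and TTACCTCA at 164 to 157 bases before the start, letters known as the proximal and distal Jun sites. The Atf3 promoter held TTACGTCA at 10 to 3 bases, and that of Mapk10 the full CRE TGACGTCA at 29 to 22 bases. Among 32851 promoters of the same length, the shares with these letters were 2.93%, 0.728%, 0.447% and 1.55%. The AP-1 site TGACTCA was in none of the 15 windows and in 4.46% of all promoters. The inner Map3k12 promoter held none of the 5 kinds, with 66.8% GC and 17 CpG against medians of 52.4% and 6. A match of letters is a description, and the Jun and Atf3 sequences and this Mapk10 sequence lie outside what was counted.

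At the head of the relay, the DLK gene Map3k12 was the 1 member whose libraries separated a stage from naive. The gene lies at chr15:102497647-102517004 on the minus strand and was counted over 17.4 kb. Naive libraries had 3.90, 4.60, 6.62, 6.99 and 7.16 CPM (reads per M of the library's interval reads, scaled with TMM factors), and the onset libraries 7.92, 9.79 and 12.5 CPM. Every onset library lay above every naive one, with the largest value in onset replicate 3 and a gap of 7.16 to 7.92 CPM between the groups. Presymptomatic libraries had 6.02, 6.33, 6.75 and 8.56 CPM, and peak libraries 3.73, 7.37, 7.70 and 8.03 CPM. Both of these stages overlapped naive. The means were 5.85 ± 1.50 CPM in naive (SD, n = 5) and 10.1 ± 2.32 CPM at onset (SD, n = 3).

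The log2 fold change of Map3k12 at onset was 0.78 ± 0.32 (SE), with a 95% interval of 0.13 to 1.43. It did not pass the threshold over all genes (edgeR quasi-likelihood test, unadjusted p = 0.0205, adjusted p = 0.972). An unadjusted p under 0.05 was reached by 4.95% of all genes in this comparison. Groups that did not overlap, with onset higher, were found for 1.6% of them. At the presymptomatic stage and at peak Map3k12 was at 0.24 ± 0.30 and 0.21 ± 0.31 (SE). Without onset replicate 3 the onset value was 0.59 (unadjusted p = 0.116), and with the mitochondrial share as a covariate, chosen after seeing the data, it was 0.44 (unadjusted p = 0.238). The onset value was 0.76 in a fit of nuclear intervals only, which leaves out mitochondrial reads (edgeR unadjusted p = 0.0229, adjusted p = 0.944). DESeq2 in place of edgeR gave 0.75 (unadjusted p = 0.0137, adjusted p = 0.764). With total counts in place of TMM the onset value was 1.44 (unadjusted p = 0.00262), where the median of all genes was itself at 0.60.

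Other measures of the onset libraries moved with this difference. Across the 16 libraries, Map3k12 was lower where the mitochondrial share was higher (Pearson r = -0.70, permutation p = 0.00263, adjusted p = 0.0232 over 60 relations). By rank the relation did not pass (Spearman rho = -0.53, permutation p = 0.0358, adjusted p = 0.179). Without the 2 libraries of most extreme mitochondrial share r was -0.41, so the relation rests in part on them, and within stages it was -0.56. Rod markers, 15 genes summed, had 598, 597 and 1228 reads per M nuclear reads in onset replicates 1, 2 and 3, against 331 to 579 in naive. The groups did not overlap, but onset replicates 1 and 2 lay just above the naive maximum. Peak replicate 4, at 673, and presymptomatic replicate 4, at 611, lay above those same onset replicates. At onset 14 of 14 tested rod markers were higher than naive, against 48.6% of all genes (median log2 fold change 0.90, 0 past the threshold). Of these, 9 had an edgeR unadjusted p under 0.05, against 4.95% of all genes. Naive and onset libraries did not overlap for 4 of the 14, against 2.53% of all genes. Rod marker reads gave no relation with Map3k12 past the threshold across libraries (r = 0.29, rho = 0.19, adjusted p = 0.618 and 0.826, unadjusted permutation p = 0.278 and 0.494; -0.33 without the 2 most extreme libraries and -0.13 within stages). The part of rod DNA in the Map3k12 difference was not tested. In bulk chromatin, more cells of a type and more reads per cell cannot be told apart.

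The LZK gene Map3k13 showed no difference past the spread at any stage. It lies at chr16:21825170-21933439 on the plus strand, with a counted length of 106 kb. Naive libraries had 33.4 to 60.8 CPM, presymptomatic 35.8 to 49.5, onset 39.4 to 54.7 and peak 29.2 to 52.9. All stages overlapped, and the log2 fold changes were -0.038 ± 0.23, 0.15 ± 0.24 and -0.035 ± 0.23 (SE). The ratio of Map3k12 to Map3k13, taken per kb within a library and so free of scaling between libraries, compares the 2 relatives directly. Its log2 value was -0.28 ± 0.39 in naive (SD, n = 5) and 0.34 ± 0.23 at onset (SD, n = 3), a difference of 0.63 (two-sided exact permutation p = 0.0714, adjusted p = 0.714 over 15 tests). Naive replicate 1, at 0.22, lay within the onset range of 0.14 to 0.59. With 5 against 3 libraries the smallest p is 0.0357.

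The 2 kinases of the next tier, MKK4 and MKK7, gave no difference past the threshold. Map2k4 lies at chr11:65688244-65788359 on the minus strand (98.1 kb counted) and Map2k7 at chr8:4238740-4247897 on the plus strand (7.16 kb counted). Map2k4 had 18.6 to 36.9 CPM in naive, 18.0 to 25.8 presymptomatic, 24.2 to 27.3 at onset and 17.8 to 34.2 at peak, and its log2 fold changes were -0.28 ± 0.24, -0.041 ± 0.26 and 0.079 ± 0.24 (SE). Map2k7 had its highest mean in naive, 3.08 ± 1.22 CPM (SD, n = 5), against 2.22 ± 0.531 (SD, n = 4), 1.72 ± 0.552 (SD, n = 3) and 1.98 ± 1.02 (SD, n = 4) at the 3 stages in order. Its values were -0.48 ± 0.44, -0.84 ± 0.49 and -0.57 ± 0.46 (SE), and naive and EAE libraries overlapped at each stage. This is the thinnest of the 10 genes, with 2 to 64 reads per library, and peak replicate 4 had 2 reads. Naive replicate 5, at 5.04 CPM, was the highest library, and without it the 3 values were between -0.58 and -0.22. The log2 ratio of Map2k4 to Map2k7 was higher than naive by 0.79 at onset and 0.75 at peak, within the spread (two-sided exact permutation p = 0.214 and 0.270, adjusted p = 0.714 for each).

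The 2 JNK genes showed wide spreads between libraries and no difference between stages past the threshold. Mapk8 lies at chr14:33377898-33447212 (67.3 kb counted) and Mapk10 at chr5:102908547-103211430 (301 kb counted), both on the minus strand. Mapk8, for JNK1, had 11.4, 16.7, 17.6, 17.6 and 26.9 CPM in naive and 13.7, 15.9, 16.3 and 28.9 CPM in presymptomatic libraries. Onset libraries had 18.6, 24.5 and 25.7 CPM, and peak libraries 10.1, 13.99, 16.9 and 22.5 CPM. Each group overlapped naive, whose own values spanned more than the difference between any stage means. The log2 fold changes were 0.035 ± 0.28, 0.35 ± 0.30 and -0.18 ± 0.28 (SE). Mapk10, for the JNK3 that neurons express, had 76.0, 96.2, 96.5, 128 and 151 CPM in naive, and its stage means were 97.7, 106 and 96.6 CPM. Its log2 fold changes were -0.17 ± 0.21, -0.052 ± 0.23 and -0.18 ± 0.22 (SE), with intervals that reached no further than -0.62 and 0.42. The ratio of Mapk8 to Mapk10 differed from naive by 0.17, 0.42 and -0.023 in log2 terms (two-sided exact permutation p = 0.825, 0.429 and 0.968, adjusted p = 0.952, 0.714 and 0.968).

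**Figure D2:**
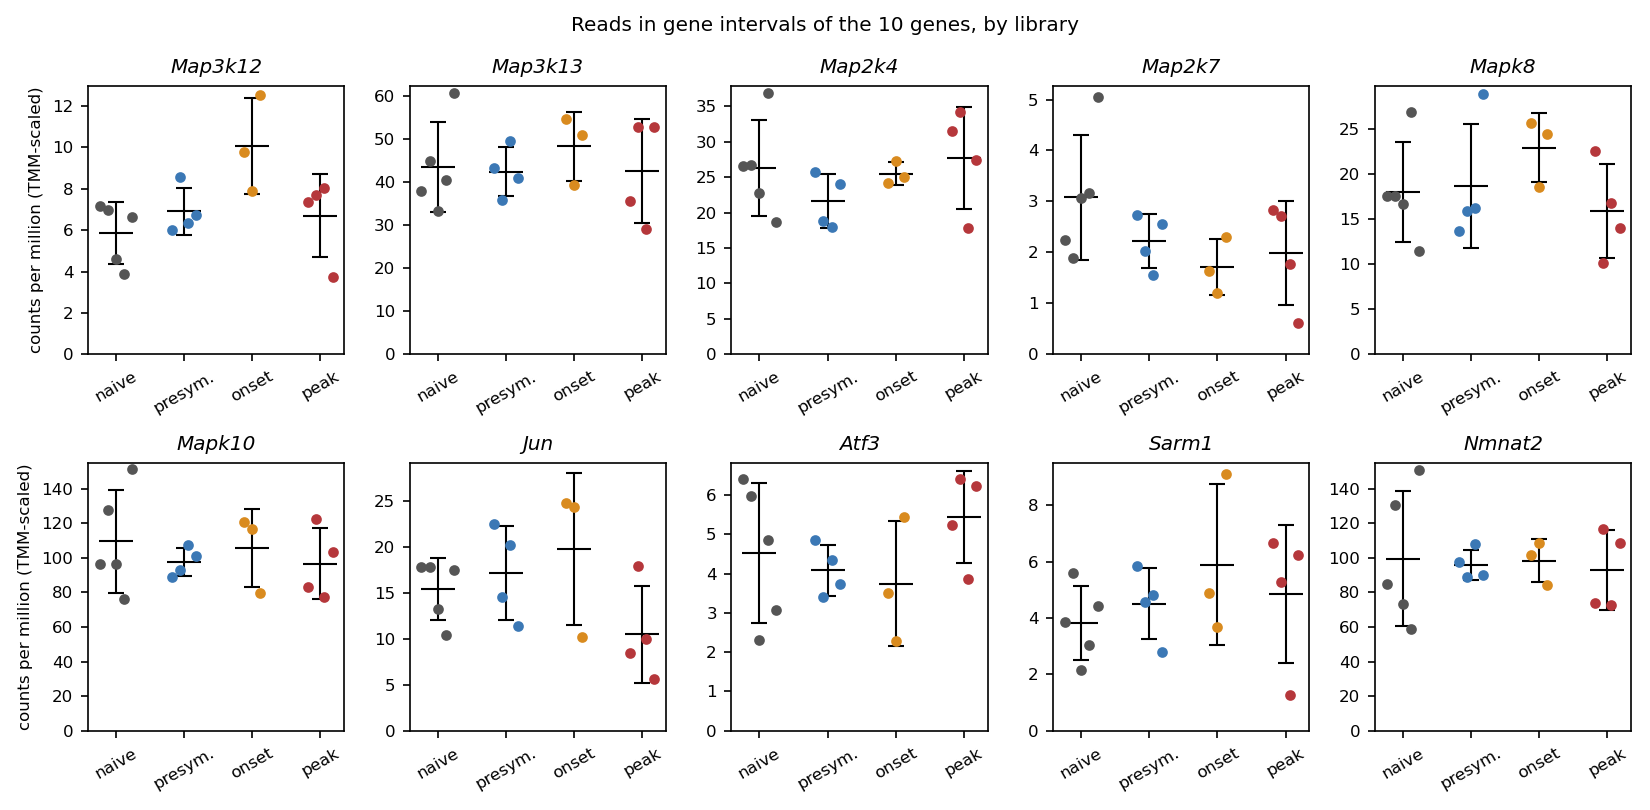
CPM of each gene in every library, by stage, on axes that start at 0; points are libraries and black marks the mean and SD of the stage (n = 5, 4, 3 and 4). In the first panel the 3 onset libraries of Map3k12 lie at 7.92 to 12.5, above the naive range of 3.90 to 7.16, and in the Jun panel 3 of 4 peak libraries lie below the naive minimum.

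Jun, the transcription factor at the end of the relay, had its lowest stage mean at peak. It lies at chr4:95049036-95052222 on the minus strand. Naive libraries had 10.4, 13.3, 17.5, 17.8 and 17.8 CPM, and peak libraries 5.60, 8.50, 9.96 and 18.0 CPM. Thus 3 of the 4 peak libraries lay below all naive ones and peak replicate 2 lay above them. Presymptomatic libraries had 11.4, 14.6, 20.2 and 22.5 CPM and onset libraries 10.2, 24.3 and 24.7 CPM. Onset replicate 3, the library with few mitochondrial reads, was again apart from the other onset libraries, here on the low side. At peak 15 of 19 tested ganglion cell markers were higher than naive (median log2 fold change 0.25), against 47.1% of all genes. Of 12 markers of Müller glia and astrocytes 2 were higher (median -0.35), and the other lists had medians of -0.21 to 0.052. No marker passed the threshold, and the part of these shifts in the Jun values was not tested.

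The log2 fold changes of Jun against naive were 0.17 ± 0.31, 0.36 ± 0.33 and -0.53 ± 0.32 (SE) at the 3 stages, none past the threshold (edgeR adjusted p of at least 0.997). Single libraries moved these values by over 1.5 times. The value at peak was -0.92 without peak replicate 2 (unadjusted p = 0.0117) and -0.34 without peak replicate 4. That at onset was 0.17 without onset replicate 2 and 0.67 without onset replicate 3, and the presymptomatic one 0.013 without presymptomatic replicate 1 and 0.32 without presymptomatic replicate 4. No left-out library took a value of Jun past the threshold (edgeR adjusted p of at least 0.827 against naive). Between stages, the log2 difference of peak from onset was -0.88 ± 0.36 (SE; unadjusted p = 0.0197, adjusted p = 0.737) and that of peak from presymptomatic was -0.70 ± 0.34 (SE; unadjusted p = 0.0477, adjusted p = 0.999). In these 2 comparisons 6.65% and 3.41% of all genes had an unadjusted p under 0.05. The 2 comparisons share the peak libraries. Leaving out single libraries took the value against onset from -1.27 without peak replicate 2 to -0.70 without peak replicate 4, and the value against presymptomatic from -1.09 to -0.51 without the same libraries. The number of reads under the peak values was small, 18 to 126 per library. Across libraries Jun tended to be higher where nuclear depth was higher (r = 0.61, rho = 0.49, adjusted p = 0.0775 and 0.268, unadjusted permutation p = 0.0116 and 0.0580; 0.38 without the 2 most extreme libraries and 0.41 within stages), which did not pass, and the part of depth in the stage values was not tested. With the share of nuclear reads in genes under 1000 bp as a covariate, chosen after seeing the data, the value of peak against onset was -0.42 (unadjusted p = 0.308). With the mitochondrial share as a covariate, likewise chosen after seeing the data, it was -1.25 (unadjusted p = 0.00368). It was -1.21 without presymptomatic replicate 4 and onset replicate 3 (unadjusted p = 0.00237), and -1.36 with total counts in place of TMM (unadjusted p = 0.00217), where the median of all genes was itself at -0.53. None of these 4 values passed the threshold (edgeR adjusted p of at least 0.139).

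Atf3, the stress-induced partner of c-Jun, also showed no difference past the threshold at any stage. It lies at chr1:191170296-191183333 on the minus strand, with 11.0 kb counted. Naive libraries had 2.30, 3.07, 4.85, 5.97 and 6.41 CPM and peak libraries 3.85, 5.24, 6.22 and 6.41 CPM. The highest peak and the highest naive library were level, so no peak library stood apart, and all 4 presymptomatic ones lay within the naive range (3.41 to 4.86 CPM). Onset libraries had 2.27, 3.52 and 5.44 CPM, the lowest of them just under the naive minimum. The log2 fold changes were -0.14 ± 0.36, -0.27 ± 0.39 and 0.26 ± 0.37 (SE). The log2 ratio of Jun to Atf3 per kb was 5.05 ± 0.64 in naive (SD, n = 5) and 4.06 ± 0.74 at peak (SD, n = 4). The difference of -0.99 did not pass (two-sided exact permutation p = 0.0952, adjusted p = 0.714), with the highest peak library, at 4.69, inside the naive range of 4.31 to 5.73.

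In the degeneration pair, Sarm1 had higher stage means than naive at all 3 stages, without a difference past the spread. Sarm1 lies at chr11:78472330-78497821 on the minus strand and Nmnat2 at chr1:152954939-153119266 on the plus strand. Naive libraries had 2.14, 3.06, 3.85, 4.41 and 5.59 CPM, and onset libraries 3.67, 4.90 and 9.12 CPM. The high onset value was again that of replicate 3, and the other onset libraries lay within the naive range. Presymptomatic libraries had 2.79 to 5.83 CPM and peak libraries 1.28, 5.27, 6.22 and 6.66 CPM, the first of these on 8 reads. The log2 fold changes were 0.26 ± 0.40, 0.62 ± 0.43 and 0.33 ± 0.42 (SE), and the onset value was 0.14 without onset replicate 3.

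Nmnat2, which counts as the survival factor of the pair, had nearly the same mean in every stage. The means were 99.6 ± 39.2 CPM in naive (SD, n = 5), 96.04 ± 8.76 presymptomatic (SD, n = 4), 98.4 ± 12.5 at onset (SD, n = 3) and 92.9 ± 22.97 at peak (SD, n = 4). Its naive libraries alone spanned the whole range, with 59.0, 73.1, 84.7, 131 and 151 CPM. The log2 fold changes were -0.054 ± 0.24, -0.019 ± 0.26 and -0.10 ± 0.24 (SE), with 95% intervals of -0.54 to 0.43, -0.55 to 0.51 and -0.59 to 0.39. The log2 ratio of Nmnat2 to Sarm1 did not differ from naive past the threshold, with differences of -0.24, -0.52 and -0.24 (two-sided exact permutation p = 0.349, 0.286 and 0.619, adjusted p = 0.714, 0.714 and 0.774). The onset value was -0.053 without onset replicate 3 and -0.89 without onset replicate 2.

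**Figure D3:**
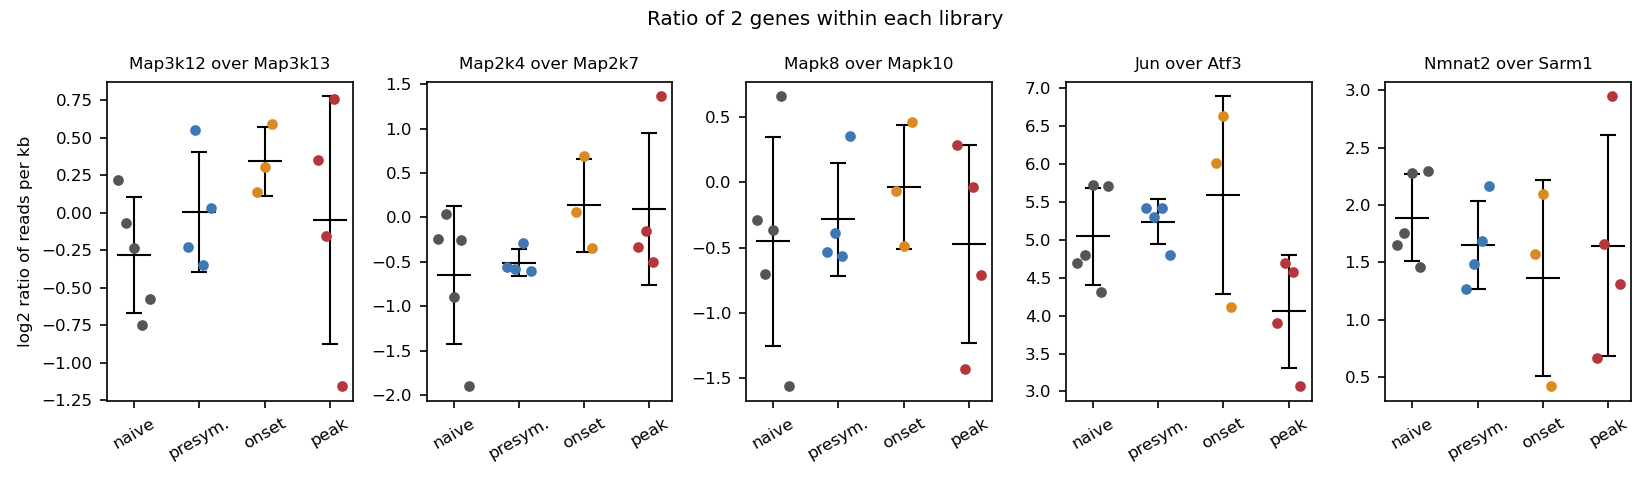
Log2 ratio of the reads per kb of 2 genes within each library, for 5 pairs, by stage; points are libraries and black marks the mean and SD of the stage. Ratios of Map3k12 to Map3k13 at onset (0.14 to 0.59) lie in the upper part of the naive range of -0.75 to 0.22 and above it, and ratios of Jun to Atf3 at peak (3.07 to 4.69) reach below the naive minimum of 4.31.

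Across all comparisons, the 10 genes gave 0 calls. edgeR called 0 of the 10 at the presymptomatic stage, 0 at onset and 0 at peak, and the F test over the 3 stages called 0 (0% of all genes in each). At an unadjusted p under 0.05 there were 0, 1 (Map3k12) and 0 of the 10, against 1.16%, 4.95% and 3.61% of all genes, and 0 in the F test, against 3.16%. DESeq2 also called 0 of the 10 in each of these and gave the same counts at an unadjusted p under 0.05. Over all 29902 genes edgeR called 0 in the 3 comparisons with naive, with 348, 1480 and 1080 at an unadjusted p under 0.05. DESeq2 called 0, 0 and 1 gene, with 516, 1834 and 1373. Groups without overlap were found for 1 of the 10 genes at onset, against 2.53% of all genes, and for 0 at the other stages, against 0.846% and 0.977%. Between stages edgeR and DESeq2 called 0 of the 10 for onset against presymptomatic, peak against presymptomatic and peak against onset (0% of all genes by edgeR in each). At an unadjusted p under 0.05 there were 0, 1 and 1 of the 10, Jun in both of the latter, against 4.13%, 3.41% and 6.65% of all genes. None of the 10 had groups without overlap between stages, against 10.1%, 2.72% and 6.75%.

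The 10 genes did not share a direction against naive. At the presymptomatic stage 4 were higher than naive and their median log2 fold change was -0.046, against 41.6% higher and -0.057 over all genes. At onset 5 were higher at a median of 0.065, against 48.6% and -0.013, and at peak 4 at -0.069, against 47.1% and -0.026. From the presymptomatic stage to onset 8 of the 10 were higher at a median of 0.19, against 53.3% and 0.034 over all genes. At peak 4 were higher than at the presymptomatic stage, at a median of -0.019, and 3 were higher than at onset, at -0.16, against 53.3% and 0.031 and 52.1% and 0.026 over all genes. Between stages, the gene with the smallest p was Map3k12 for onset against presymptomatic (0.54 ± 0.34, SE; unadjusted p = 0.118, adjusted p = 0.9999) and Jun for the 2 comparisons of peak given above. The order of stage means differed from gene to gene. Onset was highest for Map3k12, Map3k13, Mapk8, Jun and Sarm1, naive for Map2k7, Mapk10 and Nmnat2, and peak for Map2k4 and Atf3. Among neighbours in these orders, the gap exceeded the larger SD of the pair only for onset above presymptomatic in Map3k12 (3.17 against 2.32 CPM) and onset above presymptomatic in Map2k4 (3.87 against 3.82 CPM).

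**Figure D4:**
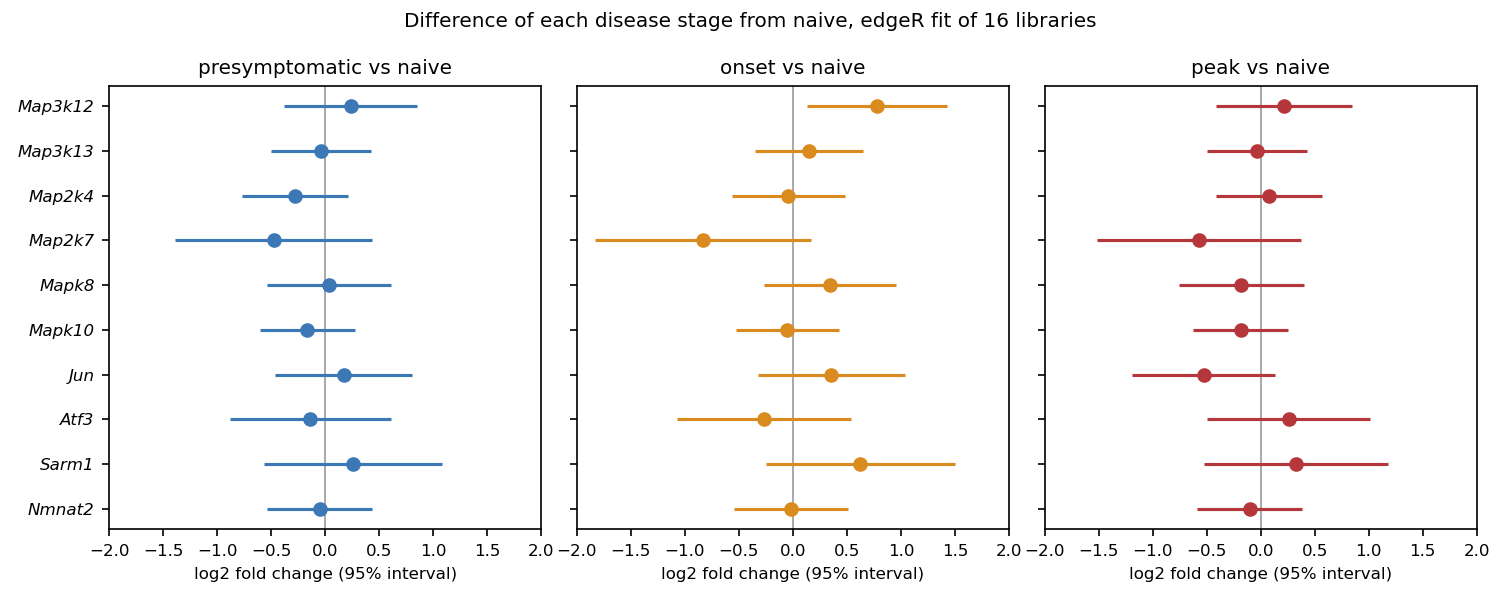
Log2 fold change of each gene at each stage against naive, from the edgeR fit of 16 libraries; points are estimates and lines 95% intervals. Of the 30 intervals, that of Map3k12 at onset (0.13 to 1.43) is the 1 that leaves out 0, and none passed after adjustment over all genes.

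For some of the genes the differences between libraries ran in parallel. Mapk10 and Nmnat2, both long neuronal genes on different chromosomes, varied together across the 16 libraries (r = 0.90, rho = 0.91, adjusted p = 0.00045 for both over 45 pairs, from a permutation p of 1e-05, which is the smallest that could be reached). Without the 2 libraries of most extreme Mapk10, r was 0.84, and within stages it was 0.93. Naive replicate 5 was highest in both, with 151 CPM in each gene, and naive replicate 4 lowest, with 76.0 and 59.0 CPM. Of the 45 pairs this was the 1 past the threshold by both measures. Map3k13 and Nmnat2 passed by rank alone (r = 0.70, rho = 0.73, adjusted p = 0.0535 and 0.0407, unadjusted permutation p = 0.00238 and 0.00181). Mapk10 and Nmnat2 also both ran with other measures of the library, given below.

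Mapk8 went the other way from the ganglion cell markers. Where the 20 marker genes of ganglion cells together had more reads, Mapk8 had fewer (r = -0.86, rho = -0.81, adjusted p = 0.0012 and 0.015 over 60 relations, unadjusted permutation p = 2e-05 and 0.00025). Without the 2 libraries of most extreme marker reads r was -0.82, and within stages it was -0.88. Peak replicate 2 had the most marker reads (731 per M nuclear reads) and the lowest Mapk8 (10.1 CPM). Naive replicate 4 had the fewest marker reads, 333, and a Mapk8 of 26.9 CPM, second to presymptomatic replicate 4 (28.9 CPM, with 368 marker reads). Mapk10 and Nmnat2 did not pass against the same markers (Mapk10, r = 0.52, rho = 0.44, adjusted p = 0.165 and 0.369, unadjusted permutation p = 0.0383 and 0.0861; Nmnat2, r = 0.60, rho = 0.57, adjusted p = 0.0820 and 0.141, unadjusted permutation p = 0.0137 and 0.0232). Within stages their r was 0.76 and 0.79. That of Jun was 0.74 within stages and 0.17 over all libraries. Against rod markers Jun had r = -0.83 within stages and -0.35 over all libraries. The within-stage values were not tested.

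Further measures of the libraries ran with other members. Map3k13 was higher where genes under 1000 bp, whose windows take in their starts, held more of the nuclear reads on the reading of the windows given above (r = 0.80, rho = 0.79, adjusted p = 0.0058 and 0.018, unadjusted permutation p = 0.00029 and 0.0006; 0.73 without the 2 most extreme libraries and 0.83 within stages). Sarm1 was lower where olfactory and vomeronasal receptor genes, which are silent in the retina and serve as a measure of background, held more (r = -0.76, rho = -0.65, adjusted p = 0.00705 and 0.0900, unadjusted permutation p = 0.00047 and 0.00769; -0.70 without the 2 most extreme and -0.77 within stages). Mapk10 and Nmnat2, which varied together, were both higher where the short genes held more (r = 0.69 and 0.79, permutation, adjusted p = 0.0232 and 0.0058). By rank neither passed (adjusted p = 0.123 and 0.0722), and within stages r was 0.77 and 0.91. Against the receptor share r was -0.54 and -0.69 (adjusted p = 0.157 and 0.0232), and -0.57 and -0.75 within stages. The part of these shares in their common variation was not tested. Map3k13 was likewise lower where the receptor genes held more (r = -0.71, rho = -0.69, permutation, adjusted p = 0.0232 and 0.0722). Its r was -0.71 without the 2 most extreme libraries and -0.70 within stages. Of the 60 relations, 2 passed by both measures and 6 by r alone. All points share the scaling by library. With the receptor share as a covariate, the log2 fold changes of Sarm1 against naive were 0.49, 0.17 and 0.27 at the 3 stages (edgeR unadjusted p = 0.161, 0.668 and 0.445). Those of Map3k13 were 0.043, -0.059 and -0.059 (edgeR unadjusted p = 0.814, 0.782 and 0.748). With the short-gene share as a covariate, chosen after seeing the data, Map3k13 was at -0.15 at onset and 0.12 at peak. None of these passed the threshold. Beyond such refits, the part of these properties in the stage values was not tested.

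**Figure D5:**
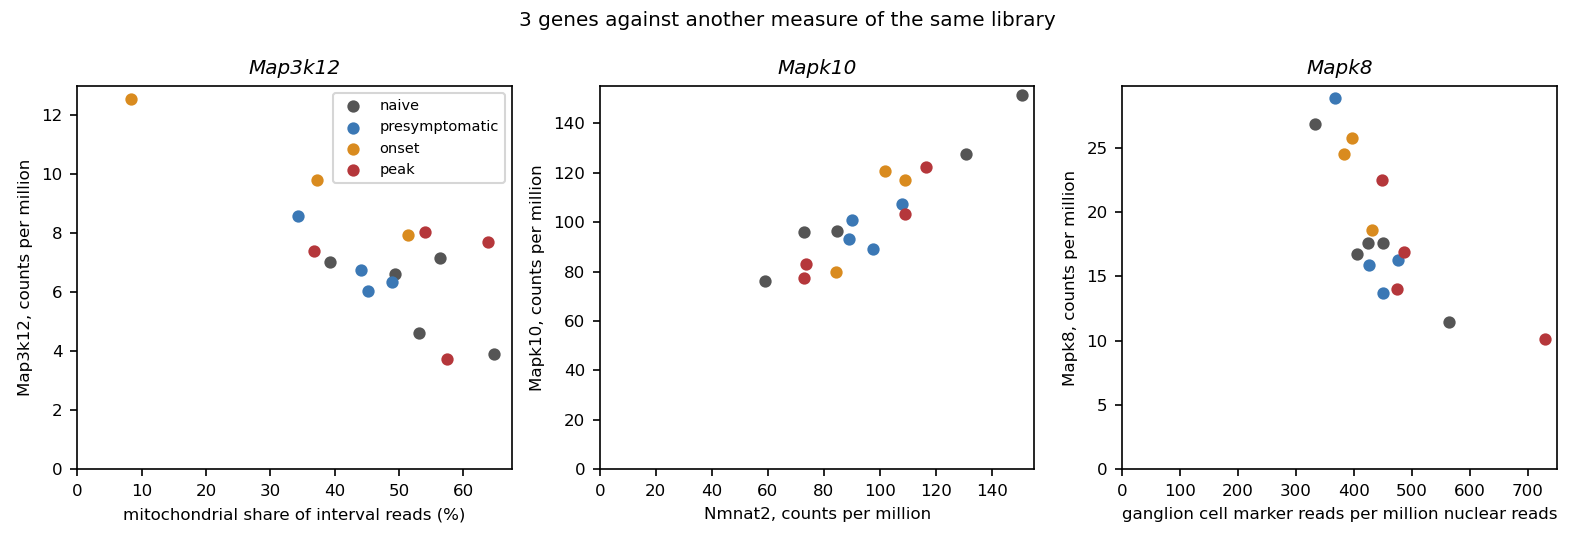
CPM of Map3k12 against the mitochondrial share of interval reads, of Mapk10 against Nmnat2, and of Mapk8 against ganglion cell marker reads, 1 point per library coloured by stage, all axes from 0. Libraries of the 4 stages mix in the panels of Mapk10 (r = 0.90) and Mapk8 (r = -0.86), while the highest Map3k12 belongs to the onset library with a mitochondrial share of 8.36%.

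By likeness over the 16 libraries, measured as the mean absolute difference of log2 CPM after centring each gene, the genes nearest to Map3k12 were Rheb (0.18), a GTPase that activates mTOR signalling, Got1 (0.21), an aspartate aminotransferase, and Gpbp1 (0.21), against a median of 0.55 over all genes. Those nearest to Jun were Basp1 (0.21), a membrane protein of growing axons, and the 2 genes 0610025J13Rik (0.22) and Gm12709 (0.23) of the same chromosome, against a median of 0.66. For both members these were the smallest differences among all genes compared, so their place under the median follows from the choice. Likeness was not tested. Of genes overlapping a member's span, Pcbp2 covered 2.38% of the Map3k12 interval, Gm26744 1.65% of that of Map3k13 and the window around the microRNA gene Mir744 1.94% of that of Map2k4. Reads in these stretches cannot be told apart between the genes, and the other 7 intervals had no such overlap.

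The wider pathway was read from 5 lists, chosen with earlier results of these data known. Each list is to be read against all genes, of which 41.6%, 48.6% and 47.1% were higher than naive at the 3 stages. Their medians were -0.057, -0.013 and -0.026, and 0% of them passed the threshold, so 0 calls in a list is no trait of that list. Of 20 other kinases and scaffolds of the JNK cascade, all tested, 0 passed at any stage, with 13, 16 and 11 higher than naive at the 3 stages and medians of 0.084, 0.15 and 0.025. At onset the smallest p on the higher side was that of Mapk8ip3, the scaffold JIP3 that carries DLK and JNK along axons, at 0.78 ± 0.40 (SE), from 5.86 ± 1.93 CPM in naive (SD, n = 5) to 10.1 ± 3.85 CPM (SD, n = 3). On the lower side it was Mapk9, for JNK2, at -0.30 ± 0.27. At the presymptomatic stage they were the scaffold gene Mapk8ip2 (0.50 ± 0.49) and Mapk9 (-0.20 ± 0.25), and at peak Map3k9 (0.38 ± 0.23) and Mapk8ip2 (-0.99 ± 0.56).

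Of 12 genes of DLK turnover and JNK phosphatases 11 were tested and 0 passed, with 2, 7 and 4 higher and medians of -0.085, 0.16 and -0.088. Fbxo45, part of the ubiquitin ligase that degrades DLK, was at 0.78 ± 0.56 (SE) at the presymptomatic stage, and the phosphatase gene Dusp16 at -0.33 ± 0.21. Zdhhc17, the palmitoyltransferase that anchors DLK to vesicles, was at 0.35 ± 0.22 at onset and -0.33 ± 0.21 at peak. Usp9x, a deubiquitinase of DLK, stood at -0.24 ± 0.28 at onset and Dusp8 at 0.41 ± 0.30 at peak.

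Partners of c-Jun and injury transcription factors (16 of 18 tested) had 0 calls, with 8, 10 and 8 higher and medians of 0.0046, 0.11 and -0.0092. Jund, which like Jun joins AP-1, was at 0.57 ± 0.32 (SE) at onset, and Fos at -0.81 ± 0.53 at the presymptomatic stage and -0.33 ± 0.56 at onset. Fosl1 (1.15 ± 0.94) and Mef2c (-0.15 ± 0.20) had the smallest p on each side at peak, and Atf5 (0.47 ± 0.76) on the higher side at the presymptomatic stage. Injury response effectors (11 of 15 tested) also had 0 calls, with 3, 6 and 3 higher and medians of -0.26, 0.014 and -0.16. Gap43, the growth cone protein, was at 0.24 ± 0.20 and 0.16 ± 0.20 at the presymptomatic and peak stages, Sesn2 at -1.01 ± 0.53 at the presymptomatic stage, and the proapoptotic gene Bbc3 at -0.65 ± 0.35 at peak. At onset they were Bax (0.39 ± 0.41) and Csrp1 (-0.33 ± 0.35).

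Genes of NAD metabolism and axon degeneration (16 of 17 tested) had 0 calls, with 4, 8 and 6 higher and medians of -0.14, -0.013 and -0.11. The deacetylase gene Sirt1, which consumes NAD, was at -0.67 ± 0.37 (SE) at the presymptomatic stage, and the nicotinamide riboside kinase gene Nmrk1 at 0.24 ± 0.36. At onset, Nadk2, the mitochondrial NAD kinase, was at 0.40 ± 0.22 and Cast, the calpain inhibitor, at -0.38 ± 0.24. At peak, Nadsyn1, NAD synthetase, was at 0.40 ± 0.38 and Bst1, which cleaves NAD, at -0.44 ± 0.31. Of the 30 values against naive named from the 5 lists, 19 moved by over 1.5 times when a single library was left out. Without peak replicate 2, Nadsyn1 was at 0.092 and Bst1 at -0.23 at peak, and without naive replicate 4 Nadsyn1 was at 0.83. Without peak replicate 4, Bst1 was at -0.97 (unadjusted p = 0.00234) and Fosl1 at 0.67, and without naive replicate 2 Fosl1 was at 2.19. Mapk8ip2 at peak was at -1.86 without peak replicate 1 and -0.70 without peak replicate 3. None of the genes named from the 5 lists passed the threshold (edgeR adjusted p of at least 0.972 for each).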

How the data were processed

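ATAC-seq reads of 16 libraries were taken from 1 table in which the authors deposited, per the file headers, a raw count and an RPKM value per gene and library. Trimming, alignment and counting tools (cutadapt, HISAT2, HTSeq) are listed in the submitters' processing notes with no version. Not given in the sources used here are genome build, annotation, read filters, duplicate removal, any shift of transposase cuts and the use of strand. The deposited RPKM served only to work out the counted length and the library total. A gene's count mixes open sites with background over its body, and reads without molecular identifiers are not independent molecules.

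Libraries were grouped by their labels, and 0 sample columns lacked a label. Counts were scaled with TMM and tested with edgeR 4.0.16 in R 4.3.3 (quasi-likelihood F test, all 16 libraries in 1 fit, no covariate). The test used 29902 genes passing filterByExpr (minimum count 10) and Benjamini-Hochberg adjustment over all of them, with a threshold of 0.05. All 10 members passed that filter. CPM divide by TMM-scaled interval reads, and log2 CPM add a prior count of 2. Ratios add 0.5 to each count and were compared by two-sided exact permutation tests. Relations across libraries used 100000 permutations. On simulated counts for onset against naive with 29178 genes, 15 of 100 genes changed 2-fold and 73 of 100 changed 4-fold were recovered, with 9 false calls. The changed genes were drawn only from those above a minimum mean count. Counts were simulated independently for each gene, without properties shared by a library, so recovery in the real libraries may differ.

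Members, gene lists and rules were chosen with earlier results of these data known. The text names all members, the gene with the smallest p on each side of each pathway list against naive, the member with the smallest p between stages, and the 3 genes most like Map3k12 and Jun. Alternatives were total-count scaling, DESeq2 1.42.0, other filters, nuclear intervals, only the groups compared, covariates, a replicate block, other pseudocounts and left-out libraries. Sequences come from RefSeq, GRCm38.p6. No library columns were identical, and the highest correlation between libraries across genes was 0.946.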

Additional observations from a re-analysis of the deposited data

Results flagged for a closer look

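Of 30 groups of 4 or 5 libraries, 3 for each of the 10 genes, 2 held a library far from the others of its stage, where chance gives about 1 in 20. For Map3k12, peak replicate 4 was at 3.73 CPM, below the 7.37 to 8.03 CPM of the other peak libraries. That library was the shallowest of all, with 1.58 M nuclear reads and 12 reads in Map3k12. For Mapk8, presymptomatic replicate 4 was at 28.9 CPM, above the 13.7 to 16.3 CPM of the others, on 124 reads. It also had the fewest ganglion cell marker reads of its stage, 368 per M nuclear reads, and the most rod marker reads, 611. Without it, the presymptomatic log2 fold change of Mapk8 against naive was -0.23 in place of 0.035.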

How the results depend on the processing

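No member passed the threshold under any alternative tried. The number of genes called stayed at 0 in all 7 comparisons when any single library was left out. Other counts were 2 for any stage with total counts, and with DESeq2 1 for peak against naive, 1 for onset against presymptomatic, 5 for peak against onset and 5 for any stage. Total-count scaling moved the median gene from -0.057, -0.013 and -0.026 to 0.26, 0.60 and 0.036 at the 3 stages, and the share of genes higher from 41.6%, 48.6% and 47.1% to 80.3%, 88.0% and 53.5%.

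Values of the members changed sign in 35 of 330 results of other settings and 24 of 480 with a library left out. Of the 35, 10 came with total counts, and these and the 6 such values of list genes all lay below the shifted median gene, so that relative to it none was higher. The cause of the other changes was not tested. With total counts the presymptomatic values were 0.24 (Map3k13), 0.061 (Map2k4), 0.094 (Mapk10), 0.13 (Atf3), 0.18 (Nmnat2) and 0.12 (Mapk9). Those at onset were 0.60 (Map2k4), 0.44 (Mapk10), 0.47 (Atf3), 0.48 (Nmnat2), 0.41 (Usp9x), 0.39 (Csrp1), 0.33 (Mapk9), 0.058 (Fos) and 0.20 (Cast), and that of Mapk8 at peak was 0.011. With the receptor share as covariate they were 0.043 (Map3k13), -0.0037 (Mapk8) and 0.10 (Nmnat2) at the presymptomatic stage and -0.059 (Map3k13) and 0.013 (Usp9x) at onset. Without the libraries labelled 16 and 17 (presymptomatic replicate 4 and onset replicate 3, whose numbers follow those of the peak libraries) they were -0.22 (Mapk8) and -0.0076 (Nmrk1) at the presymptomatic stage and 0.12 (Mapk10) and 0.081 (Nmnat2) at onset. Chosen after seeing the data, the mitochondrial covariate gave -0.029 (Mapk8, presymptomatic) and, at onset, 0.078 (Map2k4), 0.046 (Mapk10) and 0.0079 (Nmnat2). The short-gene covariate, likewise, gave 0.014 (Nmnat2, presymptomatic), -0.15 (Map3k13), 0.092 (Map2k4), 0.0050 (Usp9x) and -0.038 (Bax) at onset, and 0.12 (Map3k13) and 0.17 (Nmnat2) at peak.

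The replicate numbers showed no pairing of libraries in log2 CPM after the stage mean of each gene was taken off. On these residuals, same-numbered libraries of different stages correlated at -0.34 to 0.37 (21 pairs, median -0.0059). Other-numbered ones correlated at -0.34 to 0.34 (74 pairs, median 0.013). Of the 16 libraries, 2 correlated best with their own number, and naive replicate 5 had no same-numbered partner. With the replicate block, 1 gene was called for onset against presymptomatic. The block gave presymptomatic values of 0.12 (Map3k13), -0.10 (Mapk8), 0.0026 (Mapk10) and 0.20 (Nmnat2), onset values of 0.076 (Mapk10) and 0.18 (Nmnat2), and peak values of 0.11 (Map3k13), -0.025 (Map2k4) and 0.12 (Nmnat2). Ratios at the presymptomatic stage were -0.17 (Map2k4 to Map2k7) and -0.11 (Mapk8 to Mapk10) with the block.

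Leaving out single libraries gave presymptomatic ranges of -0.30 to 0.013 (Atf3), -0.19 to 0.14 (Nmnat2), -0.23 to 0.22 (Mapk8), -0.12 to 0.11 (Map3k13) and -0.017 to 0.37 (Nmrk1). Onset ranges were -0.67 to 0.0046 (Atf3), -0.16 to 0.18 (Nmnat2), -0.16 to 0.11 (Mapk10), -0.14 to 0.11 (Map2k4) and -0.61 to 0.090 (Fos). Peak ranges were -0.24 to 0.096 (Nmnat2), -0.041 to 0.24 (Map2k4), -0.41 to 0.0071 (Mapk8) and -0.16 to 0.12 (Map3k13). Ratios ranged from -0.30 to 0.30 (Mapk8 to Mapk10, peak), -0.11 to 0.45 (the same, presymptomatic), -0.17 to 0.32 (Map2k4 to Map2k7, presymptomatic), -0.68 to 0.084 (Nmnat2 to Sarm1, peak) and -0.036 to 0.60 (Map3k12 to Map3k13, peak). Depth limits Map2k7, Map3k12, Sarm1, Atf3 and Jun most, with 2 to 18 reads in their shallowest libraries.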
